A study of Arabidopsis thaliana with 6 samples.

Results

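The data compare Arabidopsis thaliana plants that lack both arms of cytoplasmic mRNA decay and RDR6 (rdr6-11 ein5-1 ski2-3, the triple mutant) with plants that lack RDR6 alone (rdr6-11). EIN5, also called XRN4, is the exonuclease that degrades decapped mRNAs in the cytoplasm from the 5′ end. The RNA helicase SKI2 belongs to a complex that feeds mRNAs to the exosome, which degrades them from the 3′ end. RDR6 copies single-stranded RNA into double-stranded RNA, the substrate from which Dicer-like enzymes cut small interfering RNAs. In plants without cytoplasmic decay, RDR6 can use undegraded coding transcripts as templates, and the resulting small RNAs silence the genes they came from. Both sides of the comparison carry rdr6-11, so it asks what the loss of EIN5 and SKI2 does to the transcriptome where this route is missing.

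The series holds aerial tissue of 18-day-old plants of 6 genotypes. Beside rdr6-11 and the triple mutant these are the wild type Col-0, both single mutants (ein5-1 and ski2-3) and their double mutant. Growth was at 22 °C under 16 h light and 8 h dark, and each library started from 10 µg of total RNA depleted of ribosomal RNA. The comparison rests on 1 library a side, so each difference is between 2 libraries and has no replicate check, and no p-value is given. How many plants went into each library was not stated. The members are the 33323 nuclear genes of the 33602 genes in the table. Of these, 14234 had at least 100 reads in the library with more reads, after ribosomal and transfer RNA genes were set aside, and are called measured below. The same loss in plants with RDR6, the double mutant against Col-0, is set beside it where it differs.

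The rdr6-11 library held 28074011 reads and the triple mutant library 30565543, of which 13118699 and 15440056 fell on nuclear genes. Chloroplast genes took 52.4% and 48.6% of all reads. These 2 libraries share a counting pattern that the other 4 lack: of genes with 1 to 20 reads, 81.9% in rdr6-11 (exact 95% interval 81.1 to 82.7) and 81.5% in the triple mutant (80.6 to 82.3) had an even number, against 38.4% to 41.5% elsewhere. Counting intervals for the triple mutant against rdr6-11 were therefore computed from halved counts, in case both reads of a fragment were counted. Leaf markers (RBCS1A, LHCB1.1, CA1 and RCA) summed to 25516 (TMM-scaled CPM, the unit of all levels below) in rdr6-11 and 25598 in the triple mutant. The markers of flower, seed and shoot meristem each summed to at most 4.60 CPM in either library. The root markers summed to 513 and 539 CPM, nearly all from PYK10, a beta-glucosidase of endoplasmic reticulum bodies, while the other 3 stood at 2.9 CPM or less. In bulk tissue, a change in the share of cells that express a gene and a change in RNA per cell cannot be told apart.

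The targeted EIN5 and SKI2 had lower counts in the triple mutant. EIN5 had 835 reads in rdr6-11 and 422 in the triple mutant, a log2 ratio of -1.26 (95% counting interval -1.51 to -1.02). SKI2 had 377 and 274 reads, a log2 ratio of -0.74 (-1.07 to -0.41). RDR6 had 176 and 252 reads, and its log2 ratio of 0.24 had an interval that held 0 (-0.17 to 0.65); Col-0 had 433. Transcripts of all 3 genes were still detected in the triple mutant. The clock genes bear on the time of harvest. CCA1, which peaks around dawn, had 639 reads in rdr6-11 and 900 in the triple mutant, a log2 ratio of 0.21, but 0 to 19 reads in the other 4 libraries. LHY, its partner, had 193 and 395 reads (0.75) and 2 to 6 elsewhere. The evening gene FKF1 went the other way, with 5 and 14 reads in this pair and 433 to 910 elsewhere. None of the 10 clock genes measured reached a 2-fold difference between rdr6-11 and the triple mutant, where 1.45% of all measured genes did. The 6 measured morning genes had a median of 0.36, with 5 above 0. The 4 measured evening genes had one of -0.14, with 3 below 0. The 2 libraries were thus closer in clock state to each other than to the other 4, and a small difference between them was not tested. Where rdr6-11 or the triple mutant is set beside those 4 below, genotype, clock state and the counting pattern cannot be told apart.

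Few genes differed between the 2 libraries. Of the 14234 measured genes, 168 (1.18%) were at least 2-fold higher in the triple mutant and 39 (0.274%) at least 2-fold lower. The threshold sets a size, with no test behind it. The median log2 ratio was 0.04, with 8105 genes above 0 and 6129 below, and the middle 90% of genes lay between -0.38 and 0.62. Among the 2307 genes with at least 1000 reads in both libraries that range was -0.33 to 0.33. Many genes called higher were scarce in rdr6-11: only 66 of the 12814 genes with at least 100 reads in both libraries were 2-fold higher (0.515%), and 27 were lower (0.211%). Higher genes made up 81.2% of the genes called. This share was 92.0% when libraries were scaled to all their reads, organelle reads included, and 91.8% with the ratios in the authors' deposited table, and 77.7% with median-of-ratios size factors. With no read minimum the direction turned, with 2617 genes higher and 4242 lower. At a minimum of 50 reads 309 genes were higher and 77 lower, so the turn came from genes with fewer reads than that.

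**Figure D1:**
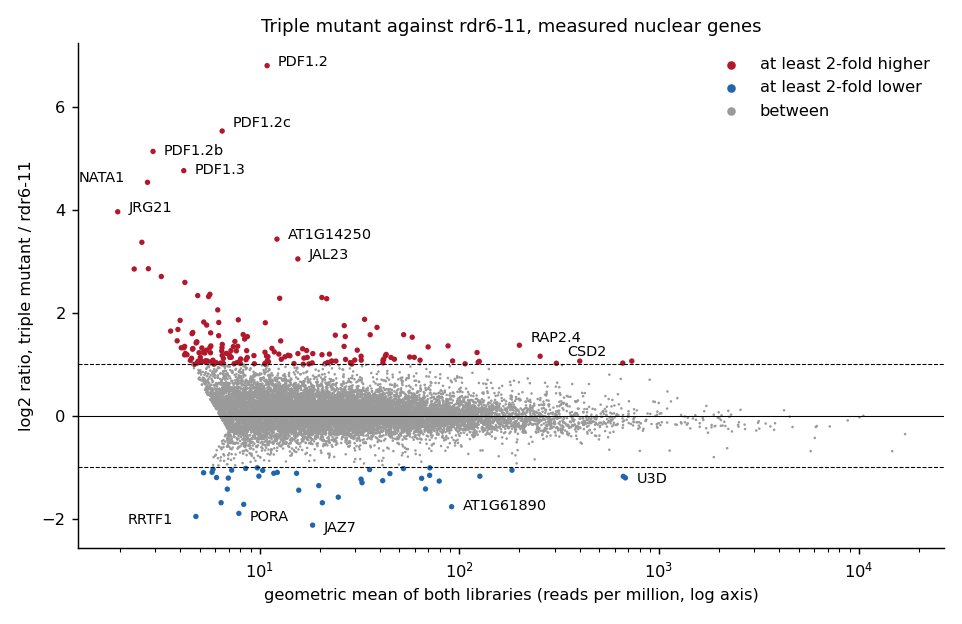
Log2 ratio of the triple mutant over rdr6-11 (vertical axis) against the geometric mean of the scaled CPM in both libraries (horizontal log axis), 1 point per measured nuclear gene; dashed lines mark 2-fold. The 4 PDF1 defensin genes stand highest, up to 6.81, while JAZ7 is lowest at -2.13, and most genes lie within the 2-fold lines.

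The genes with the highest ratios were the PDF1 defensins, followed by NATA1 and JRG21, all known to respond to jasmonate. Jasmonates are lipid hormones made after wounding and attack. The receptor COI1 removes JAZ repressors, which frees MYC2 to turn on wound outputs such as VSP1, while defensins such as PDF1.2 need jasmonate together with ethylene. PDF1.2 (AT5G44420) had 13 reads in rdr6-11 and 1832 in the triple mutant, or 0.996 and 116 CPM. With RDR6 it stood at 167 CPM in Col-0, the double mutant had 10.5, and the single mutants had 51.2 (ein5-1) and 1069 (ski2-3). The rdr6-11 library thus held the lowest level of the 6, ski2-3 the highest, and the triple mutant stood below Col-0. Its log2 ratio here was 6.81 (5.85 to 8.42), the largest of all measured genes. Its relatives PDF1.2c, PDF1.2b and PDF1.3 followed at 5.54, 5.14 and 4.77, with 12, 6 and 10 reads in rdr6-11 against 702, 276 and 345. These 4 genes are near-identical copies, so reads may have been shared among them, and they are not 4 independent observations. All 4 passed the read minimum only through the triple mutant, as did NATA1 and JRG21.

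Other jasmonate outputs were likewise lowest in the rdr6-11 library. NATA1, an acetyltransferase that makes N-acetylornithine in response to jasmonate, stood at 0.536 CPM in rdr6-11 and 13.2 in the triple mutant, while Col-0 had 46.6, the double mutant 18.8, ein5-1 11.5 and ski2-3 141. Its log2 ratio was 4.54 (3.26 to 7.15). JRG21, an enzyme that hydroxylates and so inactivates jasmonic acid, had 6 reads in rdr6-11 and 122 in the triple mutant, a log2 ratio of 3.97 (2.45 to 6.38). VSP1, a vegetative storage protein with phosphatase activity, had 22 and 164 reads and a log2 ratio of 2.59 (1.7 to 3.68), and its relative VSP2 281 and 762 reads and one of 1.16 (0.88 to 1.45). In each of these genes the rdr6-11 library was the lowest of the 6 and ski2-3 the highest. TAT3 and CORI3, both tyrosine aminotransferase relatives induced by jasmonate or its mimic coronatine, each stood at 2.28; this pair was chosen after its values were seen. LOX2, the chloroplast lipoxygenase that makes jasmonate precursors in wounded leaves, was the abundant example: 462 CPM in rdr6-11 and 938 in the triple mutant (1.02, 0.96 to 1.09), both below the 2810 to 8689 of the other 4 libraries.

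Other jasmonate and wound genes had negative ratios, JAZ7, RRTF1, ORA47 and CYP94C1 past 2-fold. JAZ7, a JAZ repressor, had the lowest ratio of all measured genes, with 502 reads in rdr6-11 and 139 in the triple mutant (-2.13, -2.55 to -1.75). In CPM it stood at 38.5 and 8.77, while Col-0 had 13.7, the double mutant 1.42, ein5-1 4.15 and ski2-3 9.02, so rdr6-11 was here the highest library. RRTF1, an AP2/ERF factor induced within minutes of wounding, had 123 and 38 reads (-1.96, -2.79 to -1.2). ORA47, an AP2/ERF activator of jasmonate synthesis genes, had 294 and 164 reads (-1.12, -1.53 to -0.72). CYP94C1, a cytochrome P450 that oxidises and inactivates jasmonoyl-isoleucine, had 559 and 226 (-1.58, -1.91 to -1.26). The synthesis genes OPR3, LOX3 and LOX4 stood at -0.80, -0.79 and -0.77 and MYC2 at -0.74, short of 2-fold but with intervals that left out 0. The jasmonate list had no single direction. Of its 17 measured genes, 3 were 2-fold higher (VSP1, VSP2 and LOX2) and 2 lower (JAZ7 and ORA47), where 1.18% and 0.274% of all measured genes were, 12 had negative ratios, and the median was -0.21 against 0.04 over all measured genes. VSP1 passed the read minimum only through the triple mutant, where it is high. Of the 16 measured genes induced early by touch or wounding, RRTF1 alone was past 2-fold, and the median was -0.19. It was lower, as 0.274% of all measured genes were. RRTF1 passed the read minimum only through rdr6-11, where it is high. The calcium-binding gene TCH2 stood at -0.47 and the xyloglucan enzyme TCH4 at -0.66.

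**Figure D2:**
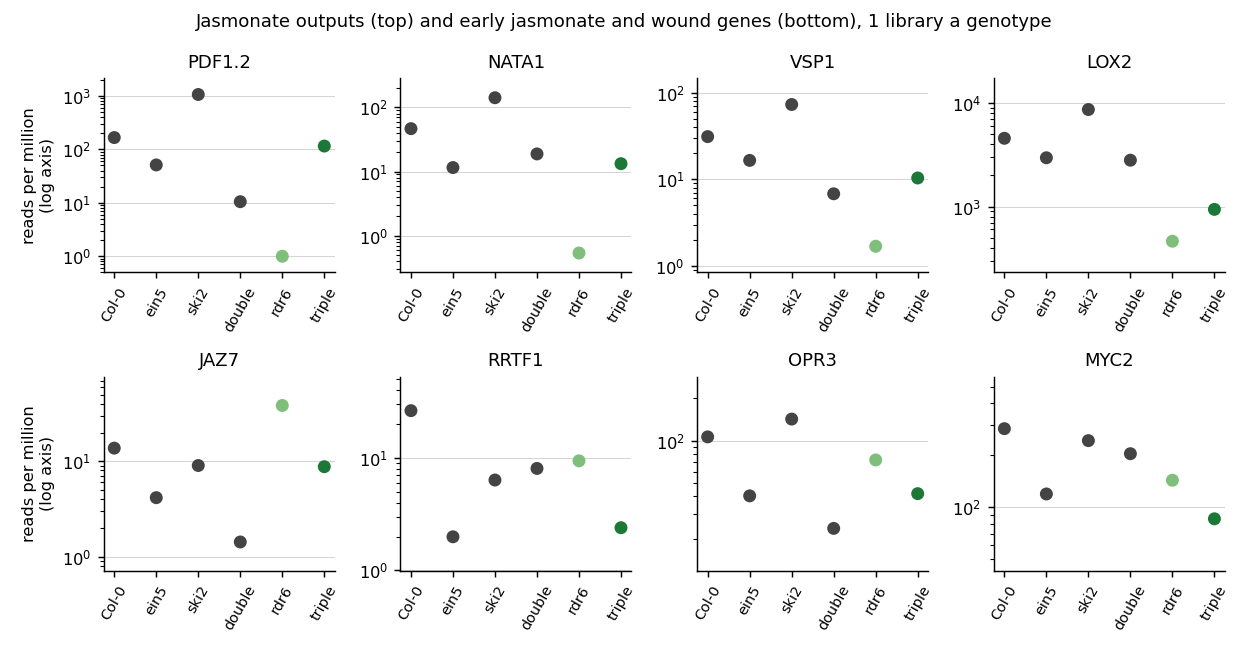
Scaled CPM (vertical log axis) in the 6 libraries, 1 point per library, for 4 jasmonate outputs (top row) and 4 early jasmonate or wound genes (bottom row); the rdr6-11 and triple mutant libraries are green. In the top row rdr6-11 is the lowest library for every gene (PDF1.2 at 0.996), and in the bottom row the triple mutant lies below rdr6-11 for every gene (JAZ7 at 8.77 against 38.5).

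Genes of salicylic acid defence were higher in part. Salicylic acid acts through NPR1 to induce pathogenesis-related proteins. PR1, its standard marker, had 20.7 CPM in rdr6-11 and 61.7 in the triple mutant, a log2 ratio of 1.57 (1.3 to 1.86), and PR2 (BGL2), a beta-1,3-glucanase, 13.9 and 41.1, a ratio of 1.57 (1.24 to 1.93). PAD3, the last enzyme of camalexin synthesis, had 28 and 110 reads and stood at 1.68 (0.83 to 2.66). The ratios of the regulators were smaller: ICS1, the main salicylic acid synthesis enzyme, stood at 0.39, PAD4 at 0.41, EDS1 at 0.29, NPR1 at 0.16 and WRKY70 at 0.00. Of 13 measured genes on the list, 3 were 2-fold higher (PR1, PR2 and PAD3) against 1.18% of all measured genes, none was lower against 0.274%, 12 were above 0 and the median was 0.39. PAD3 passed the minimum of 100 reads only through the triple mutant. No WRKY factor reached 2-fold among 25 measured, where 1.45% of all measured genes did, the highest being WRKY6 at 0.98.

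Cell-surface receptors and lectins appeared repeatedly among the genes called, and their families were counted for that reason, after their values had been seen. Receptor-like proteins are membrane proteins with leucine-rich repeats and no kinase domain. Of 54 such genes, 24 were measured, 8 were at least 2-fold higher, against 1.18% of all measured genes, and none lower, against 0.274%. Of the 8, RLP38, RLP37 and RLP50 passed the minimum of 100 reads only through the triple mutant, where they are high, and a family picked in this way supports nothing by its count. RLP38 had 16 reads in rdr6-11 and 130 in the triple mutant (2.71, 1.68 to 4.01), its relative RLP37 62 and 226 (1.58, 1.00 to 2.21), and RLP23, the receptor for a microbial peptide motif, 192 and 536 (1.2, 0.86 to 1.55). Several of these genes have close copies, among which reads may have been split. Of 44 jacalin-related and myrosinase-binding lectins, which bind sugars or the glucosinolate-cleaving enzyme myrosinase, 10 were measured and 4 were 2-fold higher, against the same 1.18%; JAL23 and MBP2 passed the minimum only through the triple mutant. JAL23 stood at 3.05 (70 and 708 reads), MBP1 at 2.3 (120 and 720) and MBP2 at 1.54 (66 and 234). The glucosinolate synthesis list itself had no gene past 2-fold among 13 measured, where 1.45% of all measured genes were, and a median of 0.10.

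Several chaperones of the heat shock response were higher. They keep proteins folded and are turned on by heat shock factors. HSP70 (AT3G12580) had 188 and 771 reads (1.75, 1.43 to 2.09), HSP101, the disaggregase needed for thermotolerance, 144 and 422 (1.27, 0.88 to 1.68), HSP90.1 90 and 258 (1.23, 0.74 to 1.76) and the prolyl isomerase ROF2 114 and 297 (1.1, 0.65 to 1.56). HSFB2A, a heat shock factor of the repressive class, stood at -0.59 (-0.94 to -0.24). Of the 16 genes on the list 6 were measured, 4 of them 2-fold higher, against 1.18% of all measured genes, with a median of 1.17. HSP90.1 passed the minimum only through the triple mutant. The other 10 did not reach 100 reads in either library, so the count covers only the members expressed in these plants. In the double mutant against Col-0, 15 members were measured and 14 were 2-fold higher, against 8.61% of all genes measured there. More members reached the read minimum there, and some may have passed it only through the double mutant, where they are high. Over the same 6 genes the medians were 1.17 without RDR6 and 2.59 with it.

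Genes for anthocyanin and flavonoid synthesis had smaller positive ratios. All 11 measured members had positive ratios, with a median of 0.48. Only UF3GT, the glucosyltransferase that stabilises anthocyanins, was past 2-fold, with 42 and 128 reads (1.32, 0.60 to 2.11). Over all measured genes 1.18% were 2-fold higher, and UF3GT passed the read minimum only through the triple mutant. Chalcone synthase (CHS), the entry enzyme, had 1338 and 3051 reads (0.91, 0.78 to 1.04), LDOX stood at 0.83 and DFR at 0.79. In the double mutant against Col-0 the same 11 genes had a median of 2.23. There 16 members were measured and 13 were 2-fold higher, against 8.61% of all genes: UF3GT had 75 reads in Col-0 against 2636 after loss of EIN5 and SKI2, and CHS stood at 2.67.

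**Figure D3:**
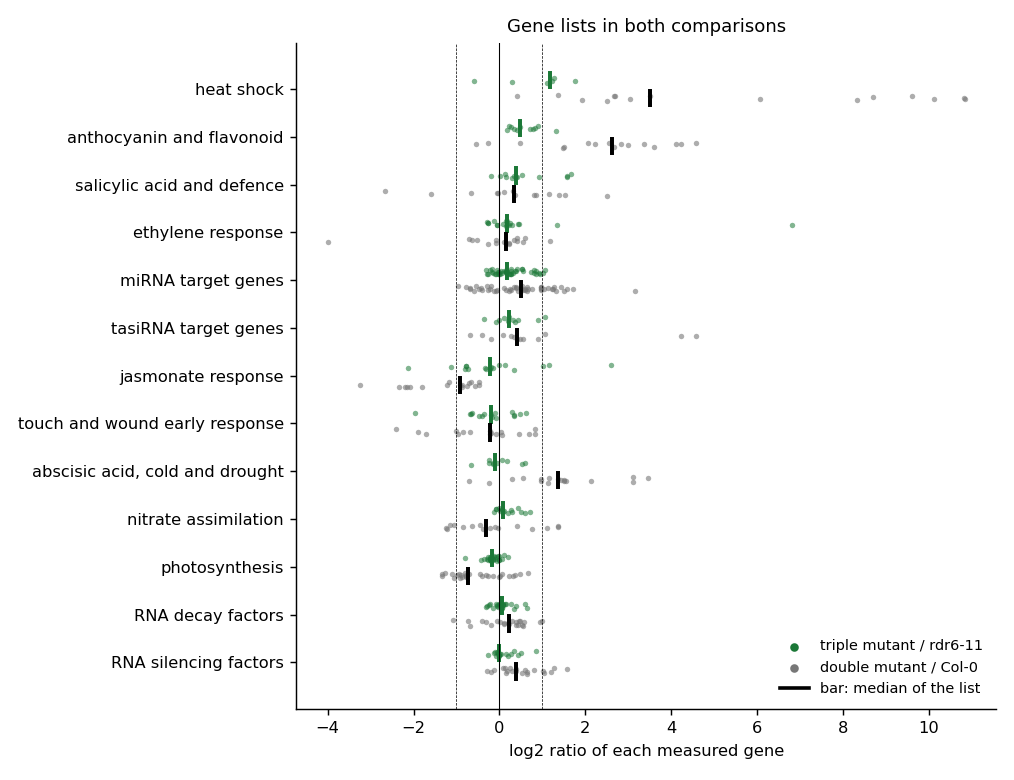
Log2 ratios of the measured members of 13 gene lists (horizontal axis) in the triple mutant over rdr6-11 (green) and in the double mutant over Col-0 (grey); 1 point per gene, bars are list medians, dashed lines mark 2-fold. Over the members measured in each comparison, which differ in number, the heat shock medians are 1.17 (6 genes) and 3.5 (15), the anthocyanin medians 0.48 (11) and 2.61 (16), and most green points lie within the 2-fold lines.

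Among miRNA targets, those of miR398 and miR160 had the highest ratios of the groups with at least 3 measured members. miRNAs guide Argonaute proteins to complementary mRNAs, which in plants are often sliced, and EIN5 degrades the 3′ fragments while the exosome degrades the 5′ ones. The targets of miR398 and miR160 are shown with their miRNAs because all 3 measured members of each group had ratios of at least 0.81. miR398 lowers copper-dependent superoxide dismutases when copper is scarce, and miR160 restrains auxin response factors. The mature miRNAs, from the RefSeq TAIR10.1 annotation, are given 5′ to 3′ with the seed, bases 2 to 8, in capitals.
miR398a-3p: uGUGUUCUcaggucaccccuu
miR398b-3p: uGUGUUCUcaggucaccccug
miR160a-5p: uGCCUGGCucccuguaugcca
miR398c-3p has the same sequence as miR398b-3p, and miR160b and miR160c-5p the same as miR160a-5p.

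The best ungapped match to these miRNAs in each target transcript of TAIR10.1 is given 5′ to 3′, with the bases that face the seed in capitals.
CSD1: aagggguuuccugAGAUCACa
CCS: auugggagaccugGGAACACu
ARF10: aggaauacagggaGCCAGGCa
ARF16: ggguuuacagggaGCCAGGCa
ARF17: uggcaugcagggaGCCAGGCa
The CSD1 match lies in the 5′ UTR, and the others lie in coding sequence. The CSD1 match had 3 mismatches to miR398a-3p and the CCS match 4 mismatches and 1 G:U pair. For CSD2 the best ungapped match had 5 mismatches and is not shown. In the 3 ARF genes the seed faced its exact complement, and they had 2 mismatches (ARF10), 2 mismatches and 1 G:U pair (ARF16) and 1 G:U pair (ARF17). These matches are descriptions of sequence and not tested sites.

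The 3 miR398 targets had positive ratios, CSD1 and CSD2 past 2-fold and CCS short of it. CSD1, the cytosolic copper/zinc superoxide dismutase, had 1138 reads in rdr6-11 and 2874 in the triple mutant, a log2 ratio of 1.06 (0.92 to 1.2). CSD2, its chloroplast counterpart, had 2803 and 6907 (1.02, 0.93 to 1.11). CCS, the chaperone that loads copper into both, had 238 and 547 (0.92, 0.60 to 1.24). The MIR398c precursor, with 168 and 131 reads, stood at -0.64 (-1.14 to -0.17), and the iron superoxide dismutase FSD1, which replaces the copper enzymes under copper shortage, at -0.54 (-0.66 to -0.43) with 2586 and 2153 reads. SPL7, the copper-sensing transcription factor above these genes, stood at -0.16 with an interval that held 0 (-0.55 to 0.22), and the copper transporter COPT1 at 0.01. In the double mutant against Col-0 the 3 targets lay on the other side of 0, with CSD1 at -0.29, CSD2 at -0.60 and CCS at -0.68. The copper list was drawn up after the values of CSD1 and CSD2 had been seen, so their count in it supports nothing. Of its 13 measured genes CSD1 and CSD2 were 2-fold higher, where 1.18% of all measured genes were, and the median was -0.00.

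The miR160 targets ARF10, ARF16 and ARF17, repressors among the auxin response factors, stood at 0.84 (0.45 to 1.26), 0.95 (0.57 to 1.36) and 0.81 (0.46 to 1.16), from 151, 155 and 208 reads to 329, 365 and 443. In the double mutant against Col-0 all 3 were past 2-fold, at 1.7, 1.05 and 1.23. AGO2, the Argonaute targeted by miR403, stood at 0.84 (0.51 to 1.18), the auxin receptor AFB2, a target of miR393, at 0.73 (0.57 to 0.90), and MYB65, a target of miR159, at 0.80 (0.30 to 1.33). Other groups had smaller positive ratios or lay near 0. The 3 HAM genes of miR171 had ratios of 0.33 to 0.56 with a median of 0.37, the 4 auxin receptor genes of miR393 a median of 0.38, and both measured targets of miR167 were above 0. The 5 class III homeodomain genes targeted by miR165 and miR166 had a median of -0.05, the 5 TCP genes of miR319 one of 0.06, and AGO1, regulated by miR168, stood at -0.03. Over all 46 measured miRNA targets, of 59 on the list, 2 were 2-fold higher, against 1.18% of all measured genes, none was lower, 32 were above 0 and the median was 0.17. The grouping by miRNA was chosen after the values had been seen.

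**Figure D4:**
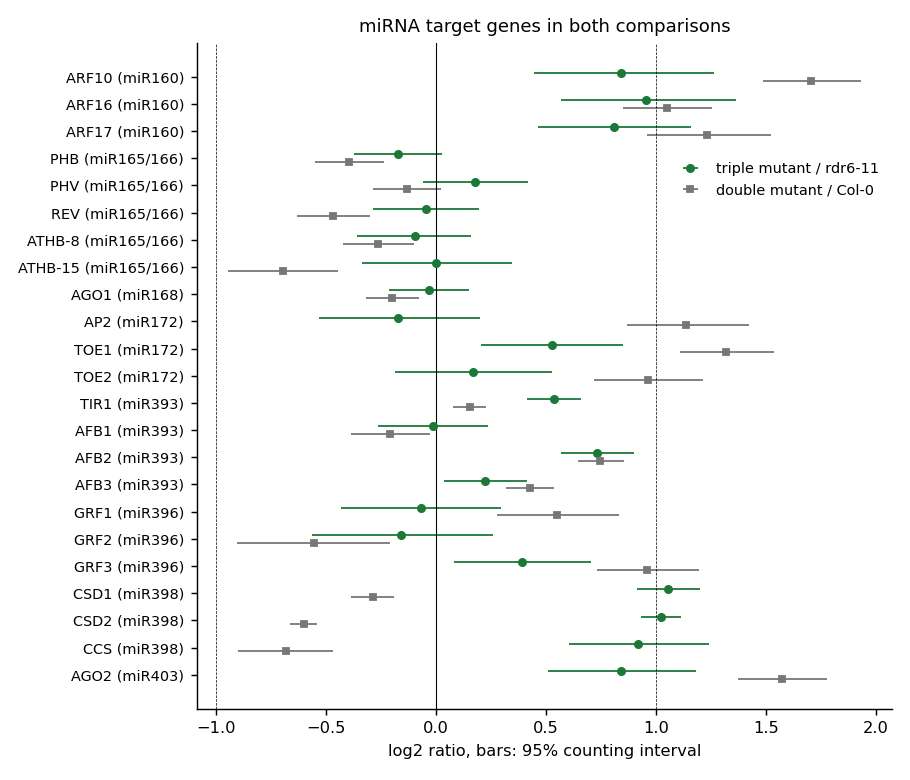
Log2 ratios (horizontal axis) of 23 targets of 8 miRNA groups in the triple mutant over rdr6-11 (green circles) and in the double mutant over Col-0 (grey squares); bars are 95% counting intervals, from halved counts for the green points. The 3 miR398 targets lie at 0.92 to 1.06 in green and at -0.68 to -0.29 in grey, while the miR160 targets lie above 0 in both.

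The medians of the RNA decay and silencing lists lay near 0. Of 23 measured decay factors none reached 2-fold, where 1.45% of all measured genes did, and the median was 0.07. At so low a share, lists of this size would often hold none. SOV, a 3′-to-5′ exonuclease, stood at 0.60 (0.41 to 0.79), and the nuclear relatives of EIN5, XRN2 and XRN3, stood at -0.01 and 0.07. Of 19 measured silencing factors none reached 2-fold, against the same 1.45%, and the median was -0.00. AGO2 and RDR1 (0.50) were the highest, while SGS3, the partner of RDR6, stood at -0.11. The trans-acting siRNA precursors TAS1A, TAS1B, TAS1C, TAS2 and TAS3 lay between -0.25 and 0.46. Their targets can be compared here only without the siRNAs, since both libraries carry rdr6-11. ARF3 and ARF4 stood at -0.00 and 0.19. Of 11 measured targets 1 was at least 2-fold higher, against 1.18% of all measured genes, and none was lower. This was the pentatricopeptide gene RPF2, with 49 and 125 reads (1.06, 0.39 to 1.83). RPF2 passed the read minimum only through the triple mutant, where it is high. The nitrate reductase genes NIA1 and NIA2, known sources of RDR6-dependent siRNAs when decay is lost, stood at -0.13 (5608 and 6216 reads) and 0.19 (21074 and 29219), against -1.22 and -0.63 in the double mutant over Col-0. SMXL4 and SMXL5, source genes with a role in the phloem, stood at 0.20 and 0.13, with intervals that held 0.

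Among abundant transcripts, those with at least 500 reads in both libraries, the highest was RAP2.4, an AP2/ERF factor linked to light, ethylene and water stress, with 1621 and 5092 reads (1.37, 1.26 to 1.49). In CPM it stood at 124 and 321 here, while Col-0 had 138, the double mutant 1019, ein5-1 483 and ski2-3 202. PLA2A, a lipid acyl hydrolase induced by pathogens, stood at 1.36 (1.19 to 1.54), PR4, a chitin-binding defence protein, at 1.34 (1.14 to 1.54) and BGLU18, a beta-glucosidase of endoplasmic reticulum bodies, at 1.16 (1.06 to 1.26). GLK1 (GPRI1 in the gene table) and GLK2, a pair of factors that turn on chloroplast genes, stood at 1.23 (1045 and 2976 reads) and 1.07 (834 and 2120). The nuclear photosynthesis genes did not show higher levels with them: 25 of 28 were below 0 and the median was -0.17. None of the 28 reached 2-fold, where 1.45% of all measured genes did, and RBCS2B was lowest at -0.81. BIG, a very large protein needed for auxin transport, had 6593 and 16736 reads (1.06). AT1G49700 and AT4G32020, for which no role is given here, stood at 1.14 and 1.06, and AT3G22235, a cysteine-rich transmembrane module protein, at 1.08.

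Of the remaining genes with the highest ratios, AT1G14250, of the apyrase family, had 48 and 636 reads (3.44), BAM5, a cytosolic beta-amylase, 10 and 131 (3.37), MAF5, a MADS-box relative of the flowering repressor FLC, 13 and 118 (2.86), and SCPL9, a serine carboxypeptidase-like protein, 11 and 100 (2.85). MAF5 was at 0.996 CPM in rdr6-11, 7.44 in the triple mutant and 1.81 in Col-0, so the triple mutant was the highest of the 6 libraries. Its relative MAF1 stood at -0.73 and the flowering regulators SVP and SOC1 at 0.03 and -0.04. The calcium exchanger CAX7 stood at 2.32 (32 and 196 reads) and the small secreted peptide PNP-A at 1.76 (38 and 158). AT1G14250, BAM5, MAF5, SCPL9, CAX7 and PNP-A all passed the read minimum only through the triple mutant, where they are high. Intervals were wide for BAM5 (2.12 to 5.09) and SCPL9 (1.72 to 4.73).

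The lowest genes after JAZ7 and RRTF1 were mixed in kind. PORA, a protochlorophyllide oxidoreductase, had 198 reads in rdr6-11 and 64 in the triple mutant (-1.90, -2.53 to -1.32), but only 2 to 7 in each of the other 4 libraries. AT1G61890, a MATE transporter, had 2203 and 784 (-1.77, -1.94 to -1.60), and XTH17, which remodels cell wall xyloglucan, 197 and 72 (-1.72, -2.32 to -1.16). PHI-1, a cell wall protein of the EXORDIUM type, stood at -1.27 with 1607 and 808 reads and DREB26, an AP2/ERF factor, at -1.22 with 1288 and 672. The other low genes under the naming rule were AT4G22505 (-1.69), AT2G25460 (-1.43), AT3G16670 (-1.42), AT3G05730 (-1.18), AT3G61198 (-1.16), PRIN2, a component of plastid transcription (-1.06), and AT2G34930 (-1.03). PORA, XTH17, AT4G22505 and AT2G25460 passed the read minimum only through rdr6-11, where they are high. AT1G40104 and AT2G08986, both without a described function in the gene table, had 338 and 413 reads in rdr6-11, 150 and 195 in the triple mutant (-1.45 and -1.36), and 15 and 18 in Col-0.

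Small nucleolar RNAs had negative ratios. The U3 snoRNAs, which guide the first cleavages of the ribosomal RNA precursor, had 13465 and 7074 reads (U3D, -1.21, -1.27 to -1.15) and 13009 and 6971 (U3B, -1.18, -1.24 to -1.12), and they are close copies of each other. All 6 measured snoRNA genes were below 0, with a median of -0.86, and the 9 measured snRNA genes, which encode spliceosomal RNAs, had a median of -0.39, with U12 above 0 at 0.28. The box C/D gene SNOR77 had 246 and 175 reads here and at most 44 in any of the other 4 libraries. AT4G00975, annotated as an antisense RNA, had 483 and 181 reads (-1.69); since the use of strand in counting is not stated, its reads and those of its partner cannot be told apart. These RNAs are short and their recovery depends on library preparation, whose part in the result was not tested.

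The differences between the double mutant and Col-0, where RDR6 is present, were larger. In the double mutant against Col-0, 1298 of 15068 measured genes (8.61%) were 2-fold higher and 1058 (7.02%) lower. The Col-0 library stands apart in that ribosomal RNA made up 19.2% of its nuclear reads, against 0.335% to 2.71% in the other 5. Scaling to total nuclear counts moved the median of the double mutant over Col-0 up by 0.41, and scaling to all counts by 0.30. The middle 90% of log2 ratios ran from -1.16 to 1.32 there, against -0.38 to 0.62 in the rdr6-11 background. These 2 comparisons share no library and were sampled at different clock states, and 13595 genes were measured in both. Of these, 175 (1.29%) were called without RDR6. Of the 142 genes called higher without RDR6 (1.04%), 65 (45.8%) were also called higher with it, where 5.95% of all genes were. These 65 were 8.03% of the 809 genes called higher with RDR6. Many of the 142 passed the read minimum only through the triple mutant, where they are high, so this contrast is a description. Of the 33 genes called lower without RDR6 (0.243%), 18 (54.5%) were also lower with it, against 7.53% of all genes. The 809 higher genes had a median of 0.37 in the triple mutant over rdr6-11, and 86.7% of them lay above 0. The 1024 lower genes had a median of -0.17, with 24.9% above 0. Across the 13595 genes Pearson's r was 0.34 and Spearman's rho 0.42, a description across genes of 4 single libraries.

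The 10 genes that stood highest in both comparisons were RLP38 (2.71 without RDR6, 3.45 with it), CAX7 (2.32 and 2.00), PNP-A (1.76 and 2.12), HSP70 (1.75 and 3.05), RLP37 (1.58 and 1.88), AT1G13360 (1.58 and 1.96), PR2 (1.57 and 2.51), PR1 (1.57 and 1.53), the receptor-like kinase RLK1 (1.46 and 1.47) and JAL23 (3.05 and 1.45). In both comparisons RLP38, CAX7, PNP-A and RLP37 passed the read minimum only through the mutant library, where they are high. JAL23 did so in the triple mutant over rdr6-11, and PR1 and RLK1 in the double mutant over Col-0. For PR1 the CPM were 5.75 in Col-0, 16.7 in the double mutant, 22.1 in ein5-1, 48.6 in ski2-3, 20.7 in rdr6-11 and 61.7 in the triple mutant, so Col-0 was lowest and the triple mutant highest. The 10 lowest in both were JAZ7 (-2.13 and -3.24), RRTF1 (-1.96 and -1.7), CYP94C1 (-1.58 and -1.74), AT4G00975 (-1.69 and -3.30), AT3G16670 (-1.42 and -2.11), PHI-1 (-1.27 and -2.47), U3D (-1.21 and -2.70), U3B (-1.18 and -3.05), AT3G05730 (-1.18 and -1.88) and DREB26 (-1.22 and -1.2). RRTF1 passed the read minimum only through rdr6-11, and JAZ7, CYP94C1 and AT4G00975 in the second comparison only through Col-0. Both sets of 10 were picked for their ratios in both comparisons.

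Another 27 genes went opposite ways. Of the 142 genes higher without RDR6, 24 (16.9%) were at least 2-fold lower in the double mutant against Col-0. Of all genes measured in both, 7.53% were lower there. The near-identical PDF1 copies are counted separately among the 24. Of the 33 genes lower without RDR6, 3 (9.09%) were higher there, near the 5.95% of all genes. The defensins showed the greatest differences between the comparisons: PDF1.2 stood at 6.81 without RDR6 and at -3.99 with it, and PDF1.3 at 4.77 and -5.84. NATA1 (4.54 and -1.31), VSP1 (2.59 and -2.19), TAT3 (2.28 and -1.99), PAD3 (1.68 and -1.60) and the geranyllinalool synthase gene TPS04, which makes a volatile precursor released after herbivore attack (1.24 and -4.79), stood on the same sides of 0 as the defensins. In the other direction the greatest differences were those of ELIP1, a light stress protein of thylakoids (0.59 and 6.71), GBSS1, the granule-bound starch synthase (0.08 and 5.0), AT1G40104 (-1.45 and 3.37), AT2G08986 (-1.36 and 3.20) and AT3G55240 (-0.68 and 3.45). With 1 library per genotype the difference between the 2 comparisons was not tested, and Col-0 and rdr6-11 levels enter it as much as those of the mutants.

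**Figure D5:**
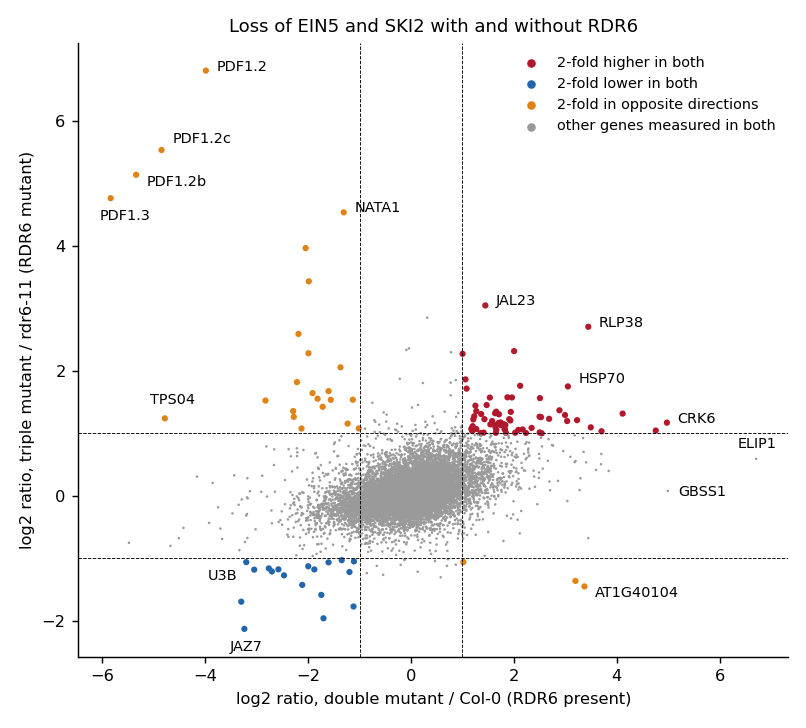
Log2 ratio of the triple mutant over rdr6-11 (vertical axis) against that of the double mutant over Col-0 (horizontal axis) for the 13595 genes measured in both, 1 point per gene, dashed lines at 2-fold. The 65 genes higher in both are red, the 18 lower in both blue and the 27 called in opposite directions orange, with the PDF1 defensins at the upper left.

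The single mutants, whose libraries are also independent of the rdr6-11 pair, were compared in the same way. Of the 168 higher genes, 111 were measured in ski2-3 against Col-0, and 46 of them (41.4%) were 2-fold higher there, against 2.04% of all genes measured in both, and none was lower. These 46 were 18.5% of the 249 genes higher in ski2-3, and the near-identical PDF1 copies are counted separately among them. Only 66 of the 168 had at least 100 reads in both libraries of the rdr6-11 pair. The others passed the read minimum only through the triple mutant, where they are high. The 168 had a median of 224.5 reads in the library with more, against 390 over all measured genes. In ein5-1 against Col-0, 117 were measured, 24 (20.5%) were higher, against 1.33% of all, and 19 (16.2%) were lower, against 1.86%. The lower genes stood differently: of 28 measured in ein5-1, 14 (50%) were 2-fold lower, and of 29 measured in ski2-3, 9 (31.0%) were, against 1.86% and 1.07% of all. The 2 mutants differed over the defensins, with PDF1.2 at 2.68 in ski2-3 and -1.7 in ein5-1 while RLP38 stood at 2.39 and 2.58. The difference between ski2-3 and ein5-1 in these counts was not tested, and these 2 comparisons share the Col-0 library.

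The list of responses to abscisic acid, cold and drought had no gene past 2-fold among 10 measured and a median of -0.10. Over all measured genes 1.45% were past 2-fold in the triple mutant over rdr6-11, so lists of this size would often hold none. In the double mutant against Col-0, 11 of its 17 measured genes were 2-fold higher, against 8.61% of all genes, and over the 9 genes measured in both comparisons the medians were -0.06 without RDR6 and 1.16 with it. Nitrate assimilation had no gene past 2-fold among 16, against the same 1.45%, and a median of 0.09. With RDR6, 3 of the 16 were higher and 4 lower, against 8.61% and 7.02% of all genes, with a median of -0.31. Phosphate starvation had none among 7, against the same 1.45%, and a median of 0.10. The same 7 genes had a median of 0.47 with RDR6, where 4 of 10 were higher, against 8.61% of all genes. The ethylene list had PDF1.2 and PR4 past 2-fold and otherwise ran from -0.30 to 0.46, with EBF1 and EBF2, the F-box proteins that degrade EIN3 and whose mRNAs depend on EIN5, at 0.16 (0.06 to 0.26) and 0.46 (0.32 to 0.61). The ethylene list had 18 measured genes, and over all measured genes 1.18% were 2-fold higher. PDF1.2 passed the read minimum only through the triple mutant. The SMXL family, senescence and flowering lists had no gene past 2-fold among 8, 8 and 3 measured, against the same 1.45%. Their medians were 0.11, 0.25 and -0.04. With RDR6 these 3 lists and the ethylene list each had 1 gene 2-fold higher, among 8, 9, 4 and 17 measured, against 8.61% of all genes. The flowering and ethylene lists each also had 1 gene 2-fold lower, against 7.02%. Which list members lay above or below 0 can change with scaling where a median lies within 0.16 of it, since scaling to all reads moved the median of all genes up by 0.16.

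The genes called shared some properties besides their ratios. Of the 207 called, 162 higher and 34 lower genes encode proteins. Higher genes had a median length of 2016 bp and lower genes one of 1809 bp, against 2590 bp over all measured genes. Among protein-coding genes split by length into 5 groups of like size, the share 2-fold higher was 2.18% in the shortest group and 0.645% in the longest, and the share lower 0.501% and 0.143%. The spread of ratios was also wider in the shortest group, where the middle 90% ran from -0.44 to 0.76, than in the longest, -0.35 to 0.46. The part of read depth in this was not tested.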

How the data were processed

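Messenger RNA was sequenced from 6 genotypes, 1 library each. The authors deposited 1 table with whole-number read counts per gene, RPKM values and log2 ratios of RPKM with p-values for pairs of libraries. Per the submitters' processing notes the tools include BWA and the build TAIR9. The deposited p-values were not used: which test made them, and whether counting used strand, is not given in the sources used here. In the authors' deposited log2 ratios, a missing RPKM value equals 0.001 within rounding.

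From the counts, a missing cell was read as 0 reads. Of 33602 identifiers, 32835 matched the TAIR10.1 gene table, used for names and classes only. The 4 ribosomal and 623 transfer RNA genes in the table were left out of the tests of size. Libraries were scaled by trimmed mean of M-values (TMM, trims 0.3 and 0.05) on nuclear genes, with a pseudocount of 0.5 for log2 ratios. A gene was measured with at least 100 reads in the library with more, and called at 2-fold or more. No count model was run, since no genotype has replicates. Intervals are exact 95% Clopper-Pearson intervals from halved counts for the triple mutant against rdr6-11 and from whole counts for the double mutant against Col-0; they cover counting error only. The steps were tested on simulated data. Python 3.11.15, numpy 2.4.6, pandas 2.3.3, scipy 1.17.1 and matplotlib 3.10.9 were used.

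Genes were named if they were among the 12 highest or lowest, the 10 highest or lowest with 500 reads in both libraries, the 10 high or low in both comparisons, or the 5 with the greatest difference each way, or if they were targeted or on a gene list. The comparison, its members and the lists were chosen with earlier results of these data known. A planned search of promoter motifs was not run, as promoter sequences were not used here. Other scalings, count minimums, pseudocounts and fold thresholds were tried.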

Additional observations from a re-analysis of the deposited data

Results flagged for a closer look

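In 15 genes named by the rules or on the gene lists, the triple mutant over rdr6-11 and the double mutant over Col-0 were past 2-fold in opposite directions. The difference between the 2 log2 ratios was not tested, and clock state differs between the pairs of libraries. It was 10.80 for PDF1.2, 10.61 for PDF1.3, 10.48 for PDF1.2b and 10.39 for PDF1.2c, which are near-identical copies. It was 6.03 for TPS04, 6.02 for JRG21, 5.85 for NATA1, 5.42 for AT1G14250 and 4.78 for VSP1. It was 3.65 for PLA2A, 3.28 for PAD3, 2.39 for VSP2 and 2.09 for AT3G22235. In the other direction it was -4.82 for AT1G40104 and -4.56 for AT2G08986.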

How the results depend on the processing

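Among the named genes and list medians, no log2 ratio past 2-fold changed sign under the scalings and pseudocount run. The scalings moved the median of all measured genes by at most 0.16, too little to reverse a ratio of that size. The counts of 168 higher and 39 lower genes became 277 and 24 with organelle reads in the scaling, 269 and 24 with the ratios in the authors' deposited table, 309 and 77 at a minimum of 50 reads, 49 and 18 at 500 reads, and 2617 and 4242 with no minimum. With 100 reads required in both libraries 66 genes were higher. At fold thresholds of 1.5 and 3 they were 824 and 220, and 34 and 7. The 65 genes higher in both comparisons became 100 with total nuclear counts, 131 with organelle reads and 127 with the authors' deposited ratios. The 18 lower in both became 11 with organelle reads and 11 with the deposited ratios. Beyond the fewer or more genes that a count minimum or fold threshold admits by construction, the cause was not tested. Of the recomputed ratios of named genes, 325 moved by less than their counting error and 17 by more. The medians of the silencing, trans-acting siRNA precursor, abscisic acid, evening clock, flowering, leaf marker and copper lists changed sign under at least 1 scaling. No paired analysis was possible because each genotype has 1 library. Depth limits genes with few reads in rdr6-11, whose intervals are wide.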
